A study of Homo sapiens with 15 samples.

Results

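The 9 genes described here encode the plasminogen activators PLAU and PLAT, the surface proteins PLAUR, ANXA2 and S100A10 that hold urokinase or plasminogen on the cell, the inhibitors SERPINE2, TFPI and TFPI2, and the thrombin cofactor THBD. They were taken by symbol from the 25737 entries of the deposited table, and all 9 were listed. Of these, 8 lay above the level limit for testing (a mean deposited log2 value of at least 3.22, the upper 50% of the table, 12870 genes) and THBD lay below it. The RNA came from U87MG, an established human glioblastoma line, 24 h after lentivirus was added. The control group received GFP lentivirus and the other 4 groups received lentivirus labelled for overexpression of ID1, ID2, ID3 or ID4, with 3 libraries in each of the 5 groups. Every group, the control included, was thus exposed to lentivirus, and no group without virus is described here. ID proteins are helix-loop-helix factors that lack a DNA-binding region and pair with the factors that bind E-box sites. The labels do not say that the 3 libraries of a group were separate cultures, so the p-values below measure the spread between these libraries, which may be technical.

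Plasminogen activators cut plasminogen, a circulating zymogen, into plasmin, a protease that digests fibrin and matrix proteins and activates other proteases. Urokinase (PLAU) works on the cell surface when it is held by its receptor PLAUR, while ANXA2 with its partner S100A10 binds plasminogen and tissue activator (PLAT) there. Serpins trap the activators in an irreversible complex, and Kunitz-type inhibitors such as TFPI and TFPI2 block plasmin-like and coagulation proteases. The system is known in glioma for its part in the spread of tumor cells through brain tissue. Of the inhibitors listed here, SERPINE2 is the serpin, TFPI and TFPI2 carry Kunitz domains, and THBD is not an inhibitor but a receptor that turns thrombin toward protein C.

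The promoters of the 5 genes that differed from GFP in at least 3 of the 4 comparisons are printed below, since the partners of ID proteins bind E-boxes. Each runs from 250 bases before to 50 bases after a RefSeq start site on GRCh38.p14, 5′ to 3′ in the direction of the gene. Capitals mark the E-box letters CANNTG and the AP-1 letters TGANTCA, which read the same on either strand.
PLAU at chr10:73910882-73911181 on the plus strand: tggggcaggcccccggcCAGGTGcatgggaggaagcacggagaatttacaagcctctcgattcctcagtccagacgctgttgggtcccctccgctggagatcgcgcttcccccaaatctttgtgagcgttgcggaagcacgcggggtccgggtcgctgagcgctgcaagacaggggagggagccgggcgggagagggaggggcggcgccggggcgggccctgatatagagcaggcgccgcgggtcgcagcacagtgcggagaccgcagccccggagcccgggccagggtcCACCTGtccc
ANXA2 at chr15:60397937-60398236 on the minus strand: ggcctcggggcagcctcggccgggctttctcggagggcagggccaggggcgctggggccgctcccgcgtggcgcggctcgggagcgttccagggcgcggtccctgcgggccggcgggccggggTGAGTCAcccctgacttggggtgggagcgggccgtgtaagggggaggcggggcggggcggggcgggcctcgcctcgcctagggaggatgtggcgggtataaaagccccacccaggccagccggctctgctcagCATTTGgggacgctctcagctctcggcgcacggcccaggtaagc
SERPINE2 at chr2:224031429-224031728 on the minus strand: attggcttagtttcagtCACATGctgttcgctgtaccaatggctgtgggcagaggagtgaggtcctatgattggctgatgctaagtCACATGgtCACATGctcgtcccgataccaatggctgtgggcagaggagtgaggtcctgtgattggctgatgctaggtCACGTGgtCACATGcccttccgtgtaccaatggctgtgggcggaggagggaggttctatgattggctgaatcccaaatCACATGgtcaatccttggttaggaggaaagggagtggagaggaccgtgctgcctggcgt
TFPI at chr2:187554386-187554685 on the minus strand: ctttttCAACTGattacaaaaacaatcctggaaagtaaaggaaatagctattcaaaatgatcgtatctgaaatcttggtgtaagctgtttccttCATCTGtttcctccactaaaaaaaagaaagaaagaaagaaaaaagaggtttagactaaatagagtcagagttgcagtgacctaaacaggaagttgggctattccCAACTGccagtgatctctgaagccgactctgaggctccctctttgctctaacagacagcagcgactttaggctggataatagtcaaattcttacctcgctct
TFPI2 at chr7:93890704-93891003 on the minus strand: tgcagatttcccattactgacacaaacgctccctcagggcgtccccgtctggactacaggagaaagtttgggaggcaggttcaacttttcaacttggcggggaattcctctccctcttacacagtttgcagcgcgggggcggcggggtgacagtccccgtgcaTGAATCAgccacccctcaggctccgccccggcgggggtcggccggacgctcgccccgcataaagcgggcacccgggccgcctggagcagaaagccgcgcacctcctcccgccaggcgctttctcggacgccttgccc
For PLAU and SERPINE2 the table held 2 start sites, and the stretches shown are start site 2 of PLAU and start site 1 of SERPINE2. In both genes the stretch shown is the one with more E-boxes, and which start site these cells use was not tested. The PLAU stretch held 2 E-boxes, while the stretch at start site 1 of PLAU held 0. The SERPINE2 stretch held 6, of which 5 read CACATG and 1 read CACGTG, and its start site 2 held 2. TFPI held 3 E-boxes, ANXA2 held 1, and TFPI2 held 0. The AP-1 letters stood in ANXA2 (TGAGTCA) and TFPI2 (TGAATCA) among those printed, and in PLAUR among those not printed.

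Over the 9 entries of 7 members, an E-box stood in 6, beside 68.7% of 35116 human promoters of the same 300 bases. The AP-1 letters stood in 3 of 9, beside 7.71% of all promoters. The GC box letters GGGCGG, searched on both strands, stood in 6 of 9, beside 45.0%. The STAT letters TTCNNNGAA stood in 0 of 9, beside 7.66%. These counts describe the letters in these windows and were not tested.

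Library totals were 11089044 to 15148979 counts, so that 3 counts corresponded to 0.198 to 0.271 CPM (counts per 1000000 counts of the library). The counts cover the 3′ ends of transcripts, were not divided by gene length, and carried no molecular identifiers. A limit set by counts alone, such as the 3 counts above, thus covers counting error only. The 95% intervals below come from the fit over libraries and, like the p-values, measure the spread between these libraries. ID4 mRNA was at 210 to 235 CPM in the libraries labelled ID4 and at 2 counts or fewer in each GFP library. ID3 mRNA was higher in the libraries labelled ID3 than in GFP (313 against 221 CPM, log2 fold change 0.49). That rise was not particular to the ID3 label, since the libraries labelled ID2 had 287 CPM (0.40 against GFP). The log2 difference of ID3 mRNA for ID2 against ID3 was -0.09 (95% interval -0.23 to 0.05). ID1 mRNA was lower in the libraries labelled ID1 than in GFP (250 against 344 CPM, log2 fold change -0.48), and so was ID2 mRNA in the libraries labelled ID2 (44.9 against 85.7 CPM, -0.92), so directions for these 2 groups are those of the libraries labelled ID1 and ID2. A 3′ tag count includes a transcript from the virus only where its 3′ end is assigned to the gene, and whether the ID constructs carry such an end is not given in the sources used here, so what these values hold of them was not tested. ID2 replicate 3 stood apart from its group, with a standard deviation of 0.165 of its log2 deviations over 8465 genes, against 0.075 to 0.109 for the other 14 libraries. Glioma markers summed to 4122 to 5333 CPM per library, although SOX2, GFAP, OLIG2 and S100B each had 3 counts or fewer over the libraries of at least 1 group. Endothelial markers summed to 1.17 to 2.32 CPM, with CDH5, VWF, CLDN5 and TIE1 at 3 counts or fewer in every group. Markers of microglia and macrophages summed to 52.0 to 77.9 CPM, with AIF1, ITGAM and CX3CR1 at 3 counts or fewer in every group. PTPRC was also at 3 counts or fewer in ID1 and ID4. Summed markers of fibroblasts, all 6 of them measured, were at 1216 to 1227 CPM in GFP and 1538 to 2348 CPM in the ID groups, and those of neurons were at 33.6 to 37.5 CPM in GFP and 45.0 to 68.3 CPM in the ID groups. Of the neuronal markers, RBFOX3 and SLC17A7 were at 3 counts or fewer in every group. The part of these marker lists in the results below was not tested. In bulk libraries, fewer cells of a kind and less RNA per cell cannot be told apart.

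Urokinase mRNA was 2.06 to 2.70 times the GFP level in the 4 ID groups, ANXA2 mRNA was higher in all 4, and TFPI2 mRNA was lower in all 4 (edgeR's quasi-likelihood test, Benjamini-Hochberg adjusted over 12870 genes). TFPI was lower with ID1, ID3 and ID4. SERPINE2 was lower with ID2 and ID4 and slightly higher with ID3. PLAT, PLAUR and S100A10 passed this test against GFP in 0 of the 4 comparisons. The 4 comparisons share the same 3 GFP libraries, so a chance deviation of GFP would enter all of them.

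**Figure D1:**
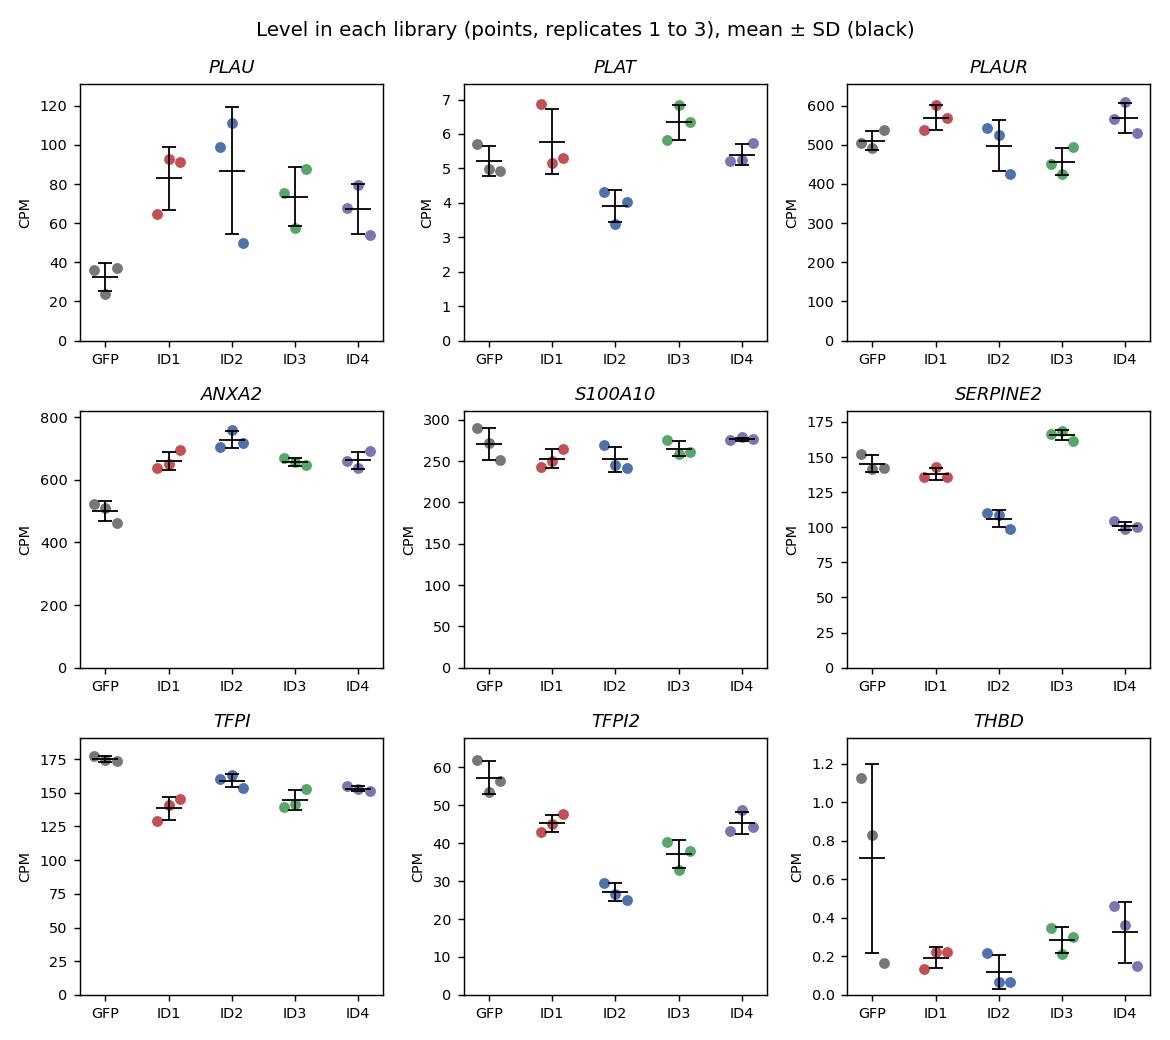
Level of each of the 9 genes in CPM (vertical axes, each from 0) in the 5 groups (horizontal axis); points are the 3 libraries of a group in replicate order and black lines are the mean ± SD. All 12 libraries of the ID groups lie above the GFP libraries for PLAU and ANXA2 and below them for TFPI and TFPI2, while SERPINE2 splits the ID groups.

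Against GFP, 4 of the 8 tested members passed the test for ID1, with PLAU and ANXA2 higher and TFPI and TFPI2 lower, where 12.4% of all tested genes were higher and 9.73% lower. For ID2, 4 passed, with PLAU and ANXA2 higher and SERPINE2 and TFPI2 lower, beside 18.5% and 16.7%. For ID3, 5 passed, with PLAU, ANXA2 and SERPINE2 higher and TFPI and TFPI2 lower, beside 15.1% and 13.5%. For ID4, 5 passed, with PLAU and ANXA2 higher and SERPINE2, TFPI and TFPI2 lower, beside 12.1% and 9.51%. Members moved in both directions in each comparison, so their median log2 fold changes stayed close to that of all tested genes (0.00), at 0.02, -0.11, 0.06 and 0.04 for ID1, ID2, ID3 and ID4. The libraries of 5, 6, 6 and 5 members did not overlap with GFP, where 37.1%, 42.3%, 40.6% and 37.1% of all tested genes did not.

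PLAU, which encodes the urokinase-type activator, lies on the plus strand of chromosome 10 (GRCh37, 75668935 to 75677254). Its level was 36.1, 24.0 and 37.1 CPM in GFP replicates 1 to 3. It was 64.5, 93.0 and 91.2 CPM with ID1, 99.0, 111 and 50.1 CPM with ID2, 75.2, 57.7 and 87.9 CPM with ID3, and 67.9, 79.4 and 54.0 CPM with ID4. The highest GFP library was below the lowest ID library, ID2 replicate 3, and that library had about the level of the lowest ID4 library while the other ID2 libraries were the highest of all. Mean levels were 32.4 ± 7.25 CPM (SD, n = 3) for GFP, 82.9 ± 15.9 for ID1, 86.8 ± 32.4 for ID2, 73.6 ± 15.2 for ID3 and 67.1 ± 12.7 for ID4. The log2 fold change against GFP was 1.33 for ID1 (standard error 0.23, adjusted p = 0.000139), 1.43 for ID2 (adjusted p = 3.16e-05), 1.16 for ID3 (adjusted p = 0.000498) and 1.04 for ID4 (adjusted p = 0.00193). These correspond to 2.52, 2.70, 2.23 and 2.06 times the GFP level. Leaving out each library gave log2 fold changes of 1.17 to 1.49, 1.22 to 1.70, 0.99 to 1.30 and 0.87 to 1.18 for ID1, ID2, ID3 and ID4.

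In the fit over all 15 libraries with the filter on low values, no pair of ID groups differed in PLAU past the threshold. The intervals leave room for differences, with ID2 against ID4 at 0.39 (95% interval -0.05 to 0.83, adjusted p = 0.221). Without ID2 replicate 3, ID2 was above ID3 by 0.55 (adjusted p = 0.0107) and above ID4 by 0.66 (adjusted p = 0.00274) on the log2 scale. Without the filter, PLAU was higher with ID1 than with ID4 (0.29, adjusted p = 0.00525). It was also higher with ID2 than with ID3 (0.27, adjusted p = 0.00404) and ID4 (0.39, adjusted p = 6.27e-06). The p-values with and without the filter are not on a par, as described for THBD below. The long non-coding gene C10orf55 overlaps PLAU on the other strand and had 4 to 13 counts in each library, against 290 to 1607 for PLAU. Whether strand was used in counting is not given in the sources used here, so reads of such a pair may be shared.

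PLAT, the tissue-type activator, was a low gene in these cells, at 49 to 104 counts per library. It lies on the minus strand of chromosome 8 (GRCh37, 42032236 to 42065227). Mean levels were 5.20 ± 0.433 CPM (SD, n = 3) for GFP, 5.77 ± 0.948 for ID1, 3.90 ± 0.463 for ID2, 6.34 ± 0.504 for ID3 and 5.40 ± 0.305 for ID4. Every ID2 library lay below every other library, and against GFP the log2 fold change was -0.40 (95% interval -0.75 to -0.06, adjusted p = 0.0653). ID2 fell short of ID1 by a log2 difference of 0.54 (adjusted p = 0.0227) and of ID3 by 0.66 (ID2 against ID3 -0.66, adjusted p = 0.00688). The difference from ID1 was lost without ID1 replicate 1 (0.39, adjusted p = 0.147) and without ID2 replicate 2 (0.44, adjusted p = 0.097), and when only the 2 groups were fitted (adjusted p = 0.074).

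PLAUR, the anchored receptor that concentrates urokinase on the cell, was with ANXA2 the highest of the 9 genes in CPM. Its GFP level of 511 ± 23.8 CPM (SD, n = 3) overlapped with that of ANXA2, 499 ± 32.1 CPM. It lies on the minus strand of chromosome 19 (GRCh37, 44150247 to 44174699). The levels were 570 ± 31.1 CPM with ID1, 498 ± 64.2 with ID2, 457 ± 35.1 with ID3 and 569 ± 39.3 with ID4. Against GFP the log2 fold changes were 0.14, -0.02, -0.18 and 0.15, with adjusted p of 0.203, 0.864, 0.0784 and 0.167. The receptor passed the test in 0 of the 4 comparisons in the fit over all 15 libraries. The 95% intervals were -0.01 to 0.30 for ID1 and 0.00 to 0.31 for ID4, which leave room for a modest increase. With only the 2 groups compared in the fit, PLAUR passed for ID1 (0.14, adjusted p = 0.0468), ID3 (-0.18, adjusted p = 0.036) and ID4 (0.15, adjusted p = 0.0454). With equal-numbered GFP and ID3 libraries paired as well, the ID3 value had an adjusted p of 0.000994. That pairing was not planned and was chosen on these same data, so its p-value is given as a description.

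Between ID groups, PLAUR was at 538, 601 and 570 CPM in the ID1 libraries and 565, 610 and 531 CPM in the ID4 libraries, all above the ID3 libraries at 452, 425 and 494 CPM. ID1 exceeded ID3 by 0.32 on the log2 scale (standard error 0.08, adjusted p = 0.0089), and ID3 was below ID4 (-0.33, adjusted p = 0.00623). Without ID1 replicate 2 or ID3 replicate 2, the ID1 difference was 0.28 (adjusted p = 0.0571 and 0.0559). ID2 replicates 1 to 3 were at 543, 526 and 424 CPM, and without the last of them ID2 was above ID3 by 0.26 (adjusted p = 0.00431).

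ANXA2, the annexin that forms a plasminogen-binding complex with S100A10, lies on the minus strand of chromosome 15 (GRCh37, 60639333 to 60695082). Its level was 523, 511 and 463 CPM in GFP replicates 1 to 3. It was 638, 649 and 694 CPM with ID1, 706, 759 and 718 CPM with ID2, 669, 655 and 646 CPM with ID3, and 659, 638 and 692 CPM with ID4. No ID library reached down to the highest GFP library, and the ID2 libraries lay above all others. The log2 fold changes against GFP were 0.39 for ID1 (standard error 0.05, adjusted p = 5.23e-06), 0.56 for ID2 (adjusted p = 1.27e-08), 0.38 for ID3 (adjusted p = 7.21e-06) and 0.41 for ID4 (adjusted p = 3.25e-06). ID2 exceeded ID1 (ID1 against ID2 -0.17, adjusted p = 0.019), ID3 (0.19, adjusted p = 0.0147) and ID4 (0.15, adjusted p = 0.0364). Each of these 3 smaller differences lost its call in at least 2 of the fits that left out a library, with an adjusted p of up to 0.0873, 0.0684 and 0.162, and the one from ID4 also with a replicate block (adjusted p = 0.0551).

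The tested genes of chromosome 15 as a whole moved with ANXA2. Over the 382 of them, the median log2 fold change against GFP was 0.34 for ID1, 0.25 for ID2, 0.32 for ID3 and 0.37 for ID4, and over the 20 nearest to ANXA2 it was 0.44, 0.25, 0.26 and 0.38. ANXA2 lay above the upper quartile of these 20 in ID2 (0.50) and inside their quartiles in ID1, ID3 and ID4. The part of the chromosome in the ANXA2 difference was not tested. The processed pseudogenes ANXA2P1, ANXA2P2 and ANXA2P3, on chromosomes 4, 9 and 10, had 64 to 1798 counts per library, and since a read can match both the gene and a copy of it, the split between them is uncertain. In that order, they were higher than GFP past the threshold with ID1 (0.62, 0.56 and 0.33), ID2 (0.69, 0.50 and 0.48) and ID4 (0.69, 0.54 and 0.30). With ID3 they did not pass (0.35, 0.27 and 0.16). The part of shared reads in these values was not tested.

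**Figure D2:**
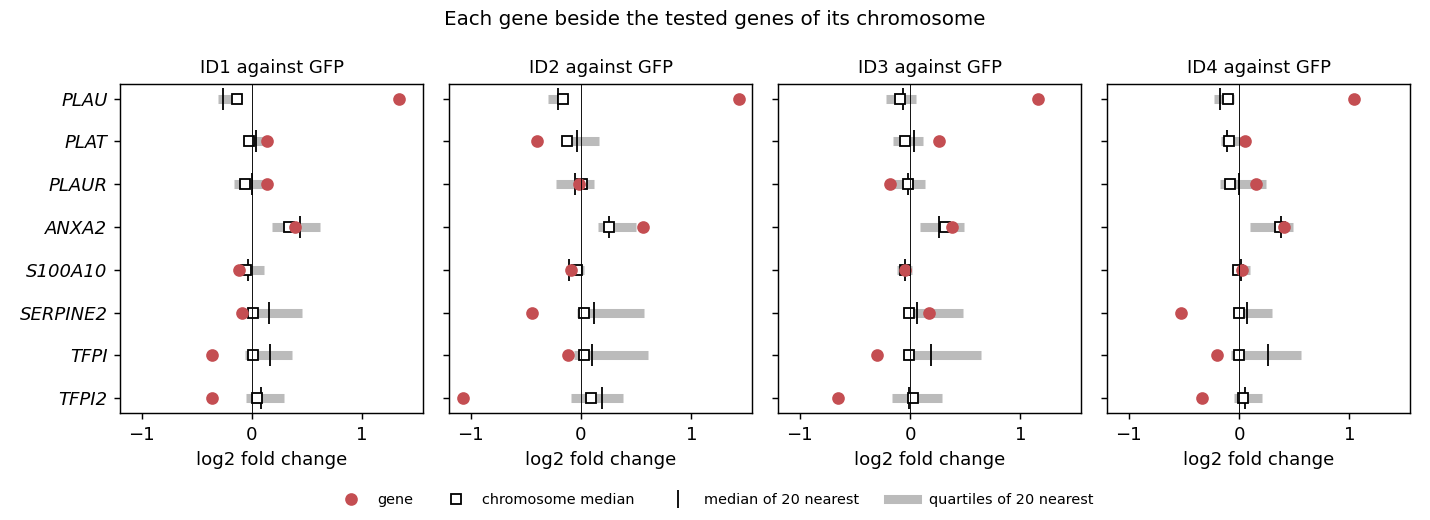
Log2 fold change against GFP (horizontal axis) of each tested member (red point, vertical axis) in the 4 comparisons (panels), with the median of all tested genes of its chromosome (open square), the median of the 20 nearest tested genes (black tick) and their quartiles (grey bar). ANXA2 lies near the raised median of chromosome 15 in ID1, ID3 and ID4, whereas PLAU, PLAT, TFPI and TFPI2 lie outside the grey bar in all 4 panels. For PLAT with ID4 the margin is narrow, at 0.05 against an upper quartile of 0.04.

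For the other members the chromosome moved less or in the other direction, except for S100A10 with ID3. There the gene and the chromosome 1 median were both at -0.05. The chromosome 10 medians were -0.14, -0.16, -0.09 and -0.10, opposite in sign to PLAU. The chromosome 7 medians were 0.05, 0.09, 0.03 and 0.04, opposite in sign to TFPI2. The chromosome 2 medians, which hold for both SERPINE2 and TFPI, were between -0.01 and 0.03.

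S100A10, the S100 protein that pairs with ANXA2, passed no test in the fit over all 15 libraries. It lies on the minus strand of chromosome 1 (GRCh37, 151955391 to 151966335), and its mean level was 271 ± 19.5 CPM (SD, n = 3) in GFP, 253 ± 11.4 in ID1, 252 ± 15.1 in ID2, 265 ± 9.05 in ID3 and 277 ± 1.79 in ID4. The log2 fold changes against GFP were -0.12, -0.09, -0.05 and 0.03, with adjusted p of 0.135, 0.222, 0.515 and 0.782. The 95% intervals of the 4 comparisons ran from -0.23 at the lowest to 0.14 at the highest, which lies below the ANXA2 interval of 0.27 to 0.48 with ID3. Without GFP replicate 3, S100A10 passed for ID1 against GFP (-0.17, adjusted p = 0.0444). All ID1 and ID2 libraries lay below all ID4 libraries. ID1 against ID4 was at -0.14 (adjusted p = 0.149) over all libraries, and passed with only the 2 groups in the fit (-0.15, adjusted p = 0.0264).

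**Figure D3:**
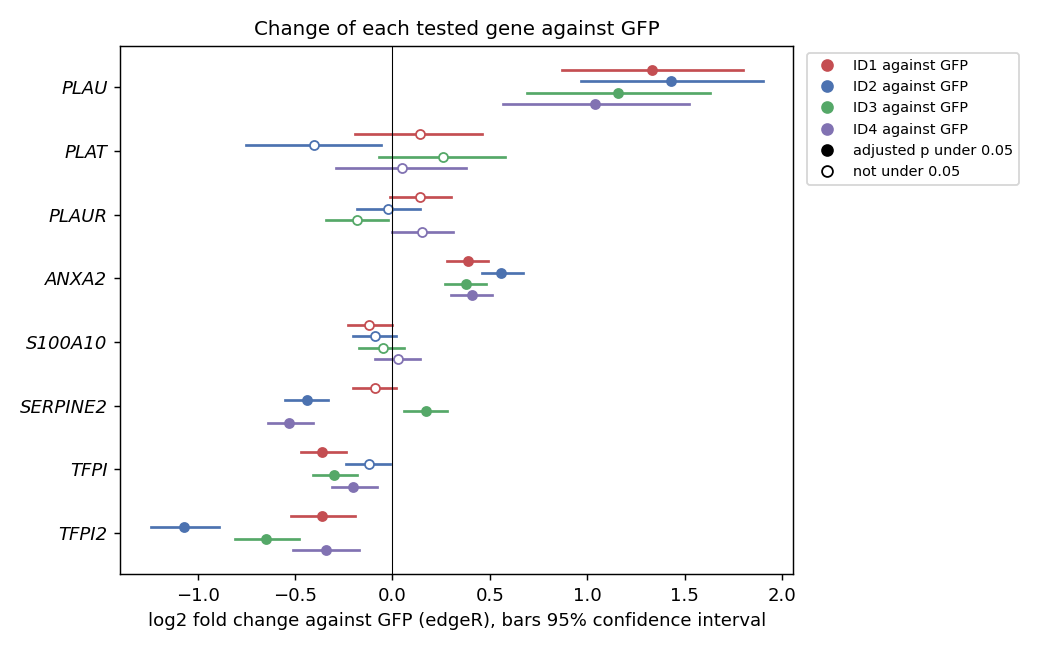
Log2 fold change against GFP (horizontal axis) of the 8 tested members (vertical axis) for the 4 ID groups; bars are 95% confidence intervals, and filled points have an adjusted p under 0.05. PLAU and ANXA2 lie to the right of 0 in all 4 groups, TFPI2 lies to the left in all 4, and SERPINE2 lies at -0.44 and -0.53 with ID2 and ID4 but at 0.17 with ID3.

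SERPINE2, protease nexin 1, a serpin that inhibits thrombin and urokinase, was the member called against GFP in both directions, lower in some ID groups and higher in another. It lies on the minus strand of chromosome 2 (GRCh37, 224839762 to 224904035). Its level was 152, 142 and 142 CPM in GFP replicates 1 to 3 and 136, 143 and 136 CPM with ID1. It was 110, 109 and 98.9 CPM with ID2, 167, 168 and 162 CPM with ID3, and 104, 98.5 and 100 CPM with ID4. All ID2 and ID4 libraries were below all GFP and ID1 libraries, and all ID3 libraries were above them. The log2 fold change against GFP was -0.44 for ID2 (standard error 0.05, adjusted p = 1.4e-06), -0.53 for ID4 (adjusted p = 2.75e-07), 0.17 for ID3 (adjusted p = 0.022) and -0.09 for ID1 (adjusted p = 0.26).

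The direct comparisons separated ID3 from the other groups. SERPINE2 was higher with ID3 than with ID4 by 0.69 (adjusted p = 1.15e-08), lower with ID2 than with ID3 (-0.61, adjusted p = 8.48e-08) and lower with ID1 than with ID3 (-0.26, adjusted p = 0.00383). ID1 exceeded ID2 by 0.35 (adjusted p = 9.17e-05) and ID4 by 0.44 (adjusted p = 1.65e-05), while ID2 and ID4 differed by 0.09 (95% interval -0.03 to 0.20, adjusted p = 0.302). The increase with ID3 over GFP was the least firm of these calls, since it was lost without the filter on low values (adjusted p = 0.0501), and without GFP replicate 2 (0.0807), GFP replicate 3 (0.0718), ID3 replicate 1 (0.0511) or ID3 replicate 2 (0.0829).

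TFPI, the Kunitz-type inhibitor of the tissue factor pathway, lies on the minus strand of chromosome 2 (GRCh37, 188328957 to 188430487). Its level was 177, 174 and 174 CPM in the GFP libraries. It was 129, 141 and 145 CPM with ID1, 160, 163 and 154 CPM with ID2, 139, 141 and 153 CPM with ID3, and 155, 153 and 151 CPM with ID4. The GFP libraries were close together and above all 12 ID libraries. The log2 fold change against GFP was -0.36 for ID1 (standard error 0.05, adjusted p = 4.49e-05), -0.30 for ID3 (adjusted p = 0.000265) and -0.20 for ID4 (adjusted p = 0.0116). For ID2 it was -0.12 (95% interval -0.24 to -0.01, adjusted p = 0.0841). TFPI was lower with ID1 than with ID2 (-0.23, adjusted p = 0.00429) and higher with ID2 than with ID3 (0.17, adjusted p = 0.0338), the latter lost in 4 of the 6 fits that left out a library.

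TFPI2, a related Kunitz-type inhibitor that is secreted into the matrix and blocks plasmin, lies on the minus strand of chromosome 7 (GRCh37, 93514708 to 93520065). Its level was 62.0, 53.4 and 56.3 CPM in the GFP libraries. It was 43.0, 45.0 and 47.7 CPM with ID1, 29.6, 26.7 and 24.9 CPM with ID2, 40.4, 33.0 and 38.1 CPM with ID3, and 43.2, 48.7 and 44.3 CPM with ID4. The ID2 libraries were the lowest, the ID3 libraries came next, and ID1 and ID4 overlapped with each other below GFP. The log2 fold change against GFP was -1.07 for ID2 (standard error 0.08, adjusted p = 1.22e-09), -0.65 for ID3 (adjusted p = 2.78e-06), -0.36 for ID1 (adjusted p = 0.00214) and -0.34 for ID4 (adjusted p = 0.00358). The ID2 level was thus 0.477 times that of GFP.

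The direct tests of TFPI2 separated ID2 from the other ID groups, and ID3 less firmly from ID1 and ID4. ID2 was below ID3 (-0.42, adjusted p = 0.00155), below ID4 (-0.73, adjusted p = 1.97e-06) and below ID1 (ID1 against ID2 0.71, adjusted p = 3.46e-06). ID3 was below ID4 (-0.31, adjusted p = 0.0185) and below ID1 (ID1 against ID3 0.29, adjusted p = 0.028). Without ID3 replicate 2 the last pair were -0.23 (adjusted p = 0.117) and 0.22 (adjusted p = 0.157). The difference from ID4 was also lost without ID4 replicate 2 (adjusted p = 0.095), and that from ID1 without ID1 replicate 2 (adjusted p = 0.0738) or ID1 replicate 3 (adjusted p = 0.135). ID1 and ID4 did not differ past the threshold (-0.02, 95% interval -0.19 to 0.15, adjusted p = 0.944). The gene GNGT1, which spans TFPI2 on the other strand, had 0 counts in all 15 libraries.

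THBD, thrombomodulin, was near the limit of detection. It lies on the minus strand of chromosome 20 (GRCh37, 23026270 to 23030309). Its counts were 16, 10 and 2 in GFP replicates 1 to 3, then 2, 3 and 3 with ID1, 3, 1 and 1 with ID2, 5, 3 and 4 with ID3, and 6, 4 and 2 with ID4. GFP replicates 1 and 2 stood above all other libraries, but GFP replicate 3 was level with the ID libraries, so the groups overlapped. The gene was not among the 12870 tested. A fit without that filter, over 20253 genes, gave a log2 fold change of -1.88 for ID1 (adjusted p = 0.0458), -2.51 for ID2 (adjusted p = 0.00554), -1.32 for ID3 (adjusted p = 0.157) and -1.14 for ID4 (adjusted p = 0.29), with most ID libraries at or under 3 counts. That fit gave PLAU an adjusted p of 6.88e-61 for ID1, against 0.000139 with the filter, so the p-values of the 2 fits are not on a par, and the THBD values are given as a description.

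Across pairs of ID groups, 5 of the 8 tested members differed between ID1 and ID2 (PLAT, SERPINE2 and TFPI2 higher and ANXA2 and TFPI lower with ID1), where 18.6% of all tested genes did. Between ID1 and ID3, 3 members differed (PLAUR and TFPI2 higher and SERPINE2 lower with ID1), beside 9.18%. Between ID1 and ID4, 1 differed (SERPINE2, higher with ID1), beside 4.87%. Between ID2 and ID3, 5 differed (ANXA2 and TFPI higher and PLAT, SERPINE2 and TFPI2 lower with ID2), beside 15%. Between ID2 and ID4, 2 differed (ANXA2 higher and TFPI2 lower with ID2), beside 18.6%. Between ID3 and ID4, 3 differed (SERPINE2 higher and PLAUR and TFPI2 lower with ID3), beside 11.3%. In this fit of all groups with the filter on low values, SERPINE2 was called in 5 and TFPI2 in 5 of these 6 comparisons, and PLAU and S100A10 in 0.

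Other genes of the plasminogen system were taken from a list of 26, of which 12 were high enough to test. In the libraries labelled ID1, ID2, ID3 and ID4, 2, 4, 3 and 3 of the 12 were higher than GFP and 2, 2, 4 and 4 were lower, with median log2 fold changes of 0.09, 0.04, -0.02 and -0.03 against 0.00 over all tested genes. Among all tested genes, 12.4%, 18.5%, 15.1% and 12.1% were higher and 9.73%, 16.7%, 13.5% and 9.51% lower in these comparisons. On a list of 12, both counts for ID1 and the lower count for ID2 thus lie near that share. Of the receptors that clear complexes of urokinase with serpins, LRP1 was higher in all 4 groups (0.37, 0.75, 0.71 and 0.66) and VLDLR was lower in all 4 (-0.89, -0.66, -0.62 and -0.89). IGF2R, which binds PLAUR and plasminogen, was higher in all 4 (0.37, 0.29, 0.33 and 0.37).

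Of 24 genes for coagulation and thrombin receptors, 7 could be tested. In ID1, ID2, ID3 and ID4, 2, 4, 3 and 3 of them were higher than GFP and 0, 0, 1 and 1 were lower, with median log2 fold changes of 0.22, 0.31, 0.22 and 0.20 against 0.00 over all tested genes. The shares of all tested genes called were again 12.4%, 18.5%, 15.1% and 12.1% higher and 9.73%, 16.7%, 13.5% and 9.51% lower. The thrombin receptors F2R (0.34, 0.19, 0.24 and 0.25) and F2RL2 (0.91, 1.08, 0.91 and 1.37) rose in all 4. F3, the tissue factor whose pathway TFPI restrains, fell with ID3 (-0.90, adjusted p = 7.05e-05) and ID4 (-0.56, adjusted p = 0.00687). With ID1 and ID2 the F3 changes were -0.24 (adjusted p = 0.248) and 0.31 (adjusted p = 0.0891).

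Of a list of 24 other annexins and S100 proteins, with AHNAK, a partner of the ANXA2 and S100A10 complex, counted among them, 16 could be tested, and 6, 9, 7 and 7 were higher and 2, 2, 2 and 2 lower in ID1, ID2, ID3 and ID4, with median log2 fold changes of 0.17, 0.25, 0.15 and 0.20 against 0.00 over all tested genes. Beside the same shares of all tested genes (12.1% to 18.5% higher, 9.51% to 16.7% lower), the lower counts of 2 in 16 lie near the background. ANXA8 showed the largest mean change among those called in all 4 groups, at 0.932 CPM in GFP and 4.31, 7.69, 3.06 and 2.61 CPM in ID1, ID2, ID3 and ID4 (log2 fold changes 2.21, 3.07, 1.71 and 1.47). S100A3 (0.59, 0.78, 0.72 and 0.77), S100A2 (0.73, 0.37, 0.68 and 0.97) and S100A4 (0.34, 0.43, 0.82 and 0.75), calcium-binding relatives of S100A10, were higher in all 4, as was ANXA6 (0.22, 0.52, 0.30 and 0.32). The sixth gene called the same way in all 4, S100A16, was lower (-0.53, -0.21, -0.36 and -0.20, adjusted p = 4.01e-06, 0.0158, 0.000356 and 0.0324) and is named after its values were seen.

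**Figure D4:**
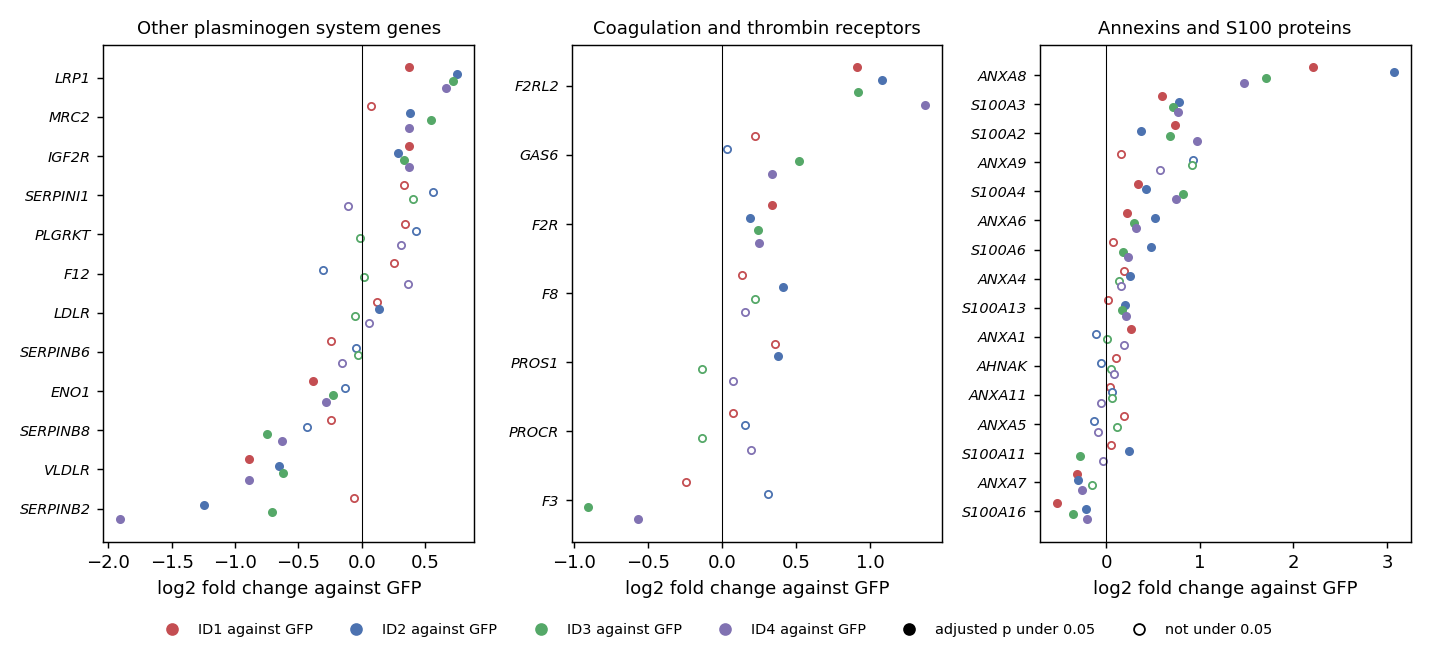
Log2 fold change against GFP (horizontal axes) of the tested genes of the 3 lists (panels, genes on the vertical axes) in the 4 ID groups; filled points have an adjusted p under 0.05. LRP1, IGF2R, F2RL2 and ANXA8 lie to the right of 0 in all 4 groups, VLDLR lies to the left in all 4, and F3 lies at -0.90 with ID3 and at 0.31 with ID2.

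The genes most like each tested member over the 15 libraries, by Pearson's r of log2(CPM + 1) among all tested genes, are given as a description, since the libraries share groups and depth. For PLAU they were PDLIM7 (0.940) and FERMT2 (0.940), for ANXA2 they were ENC1 (0.975) and PHLDB2 (0.968), and for TFPI2 they were TYMS (0.961) and HERC4 (0.946). For PLAUR they were NOP16 (0.939) and ANLN (0.935), for TFPI they were TNFRSF21 (0.921) and PKIB (0.920), and for SERPINE2 they were OVAAL (0.897) and KLHL5 (0.894). The values were lower for PLAT, with ZNF576 (0.892) and SLC2A8 (0.873), and for S100A10, with BAIAP2 (0.805) and WWTR1 (0.804). The other members were left out of this search.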

How the data were processed

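The 15 libraries of U87MG cells (5 groups of 3) were grouped by their labels. Sequencing libraries came from the QuantSeq 3′ kit, and a company handled the reads against hg19 (GRCh37). Bowtie2 and BWA are named in the submitters' processing notes, without versions. The counting tool, its use of strand and the annotation are not given in the sources used here. Raw counts per gene symbol were deposited by the authors without normalization, in 15 columns. The authors also deposited 15 columns of log2 values normalized between libraries, which set the filter on low values and fed the limma alternative.

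CPM was the count divided by the library total, times 1000000. Counts were tested with edgeR 4.0.16 in R 4.3.3 (TMM, quasi-likelihood test, 1 mean per group over all 15 libraries, Benjamini-Hochberg adjustment over 12870 genes, threshold 0.05). The study's methods name a fold threshold and a two-group test, tried as an alternative. Other alternatives were limma 3.58.1, DESeq2 1.42.0 and its size factors, other filters, 2 groups at a time, a replicate block, and each library left out. The scripts were tested on simulated data.

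Equal replicate numbers were checked for pairing by the correlation of deviations from group means across genes. It was 0.21, 0.22 and 0.33 for GFP with ID3, 0.09, 0.28 and 0.45 for ID2 with ID4, and -0.50 to 0.45 over all 30 pairs. A library correlated best with that of its own number in 6 of 6 cases for GFP with ID3, and in 4 of 6 for ID2 with ID4. Only GFP and ID3 were treated as paired, on the data alone, in an added fit. Positions came from GENCODE lifted to GRCh37 (11638 of 12870 tested genes placed), and promoters from RefSeq (GRCh38.p14; 7 of 9 members printed or counted). The 9 members, the 3 gene lists and the marker lists were chosen with earlier results of these data known. Named genes were the members, genes overlapping or copied from them, genes of a list called the same way in all 4 comparisons (at most 5 a list), F3, ID1 to ID4 and the 2 genes most like each tested member. Of these, 2 genes are not reported here. Figures were drawn with matplotlib 3.10.9.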

Additional observations from a re-analysis of the deposited data

How the results depend on the processing

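With each library left out in turn, the number of members called against GFP was 4 to 5 for ID1, 4 for ID2, 4 to 6 for ID3 and 5 for ID4. It was 3 to 5 for ID1 against ID2, 1 to 3 for ID1 against ID3, 1 for ID1 against ID4, 3 to 7 for ID2 against ID3, 1 to 3 for ID2 against ID4 and 2 to 3 for ID3 against ID4. With a fold over 2 required as well, the counts against GFP were 1, 2, 1 and 1 for ID1, ID2, ID3 and ID4, with PLAU in each and TFPI2 added for ID2, and 0 in all 6 comparisons between ID groups. The rule of the study's methods gave the same 1, 2, 1 and 1. Without the filter on low values, 2 members were called for ID1 against ID4 and 4 for ID2 against ID4. With only the 2 groups in the fit, the counts against GFP were 5, 4, 6 and 6 for ID1, ID2, ID3 and ID4, with PLAUR gained for ID1, ID3 and ID4, and between ID groups they were 4 for ID1 against ID2, 3 for ID1 against ID4, 3 for ID2 against ID3 and 1 for ID2 against ID4. The replicate block gave 4, 4, 5 and 5 members against GFP and changed 1 member call between ID groups (ANXA2, ID2 against ID4), leaving 1 there. In the added fit that paired GFP with ID3 by number, 6 members were called. Of 1038 fold changes of members under alternatives other than the fold rules, 965 kept direction and side of the threshold, 32 lost the threshold, 21 gained it and 20 changed sign. All sign changes were of values not past the threshold and came with a library left out, where PLAT ranged from -0.01 to 0.21 (ID1 against GFP), 0.00 to 0.11 (ID4 against GFP) and -0.06 to 0.16 (ID1 against ID4). PLAUR ranged from -0.09 to 0.07 (ID2 against GFP) and -0.06 to 0.04 (ID1 against ID4), and S100A10 from -0.03 to 0.07 (ID4 against GFP) and -0.06 to 0.02 (ID1 against ID2). PLAU ranged from -0.37 to 0.12 (ID1 against ID2) and -0.03 to 0.26 (ID3 against ID4), ANXA2 from -0.02 to 0.04 (ID1 against ID3), -0.05 to 0.01 (ID1 against ID4) and -0.06 to 0.00 (ID3 against ID4), and TFPI2 from -0.05 to 0.03 (ID1 against ID4). The cause of these changes was not tested beyond the fewer libraries or genes in each fit. With 3 libraries a group, an exact permutation test of a single gene cannot go below p = 0.10, and THBD is limited by its counts.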
